A study of Mus musculus with 5 samples.

Results

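The genes described here are 10 genes of thioredoxin, peroxiredoxin and other antioxidant enzymes, Txn1, Txnrd1, Prdx1, Prdx2, Prdx4, Gpx1, Gclm, Nqo1, Cat and Sod1. They were taken by gene symbol from the annotation of a mouse 2-colour microarray, where 13 probes carried one of these names among 22204 probes with a gene name. All 10 had a value on all 5 arrays, as had 9000 of the 14654 named genes. The series measured spleens of 2 mutant groups. Both groups carried the homozygous Sirt6 knockout. The first group was in addition heterozygous for a Rela knockout (Sirt6-/- Rela+/-, 3 arrays, below called Rela heterozygous), and the second carried the Sirt6 knockout with no Rela genotype named (Sirt6-/-, 2 arrays, below called knockout). On each array 15 ug of amplified mutant RNA in Cy5 was hybridised with 15 ug of amplified RNA from a wild-type spleen pool in Cy3. No source used here gives the age, sex or strain of the mice, the size of the pool or how the alleles were made.

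Thioredoxin is a small protein that reduces disulfide bonds in other proteins and is itself reduced by thioredoxin reductase at the expense of NADPH. Peroxiredoxins use thioredoxin to remove hydrogen peroxide, glutathione peroxidases do so with glutathione, catalase breaks peroxide down directly, and superoxide dismutases make peroxide from superoxide. Many of these genes are targets of the transcription factor NRF2, which binds the antioxidant response element, and NQO1 and the glutathione synthesis enzyme GCLM are classic examples. Red cells hold large amounts of peroxiredoxin 2, catalase, glutathione peroxidase 1 and superoxide dismutase 1, and the mouse spleen is a site of red cell formation.

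Promoter sequences are shown for 3 of the genes because NRF2 is the best known shared regulator of the group, and because the values of Prdx1, Gclm and Txn1 that follow lie far apart. The core of the antioxidant response element, TGACNNNGC on either strand, was searched in the 300 bases from 250 before to 50 after each RefSeq transcription start of build GRCm38.p6. It was found in 4 of 12 promoters of the members, those of Gclm, Prdx1, Sod1 and 1 of the Txnrd1 starts, against 12.4% of all 32851 promoters. In the sequences below it stands in capitals, on the strand opposite to the gene. The Prdx1 match lies 125 bases before the start and the Gclm match 126 bases before it. The Prdx1 match also contains TGACTCA, the AP-1 motif. The Txn1 promoter holds no such core in this window.
Prdx1 promoter (chr4:116685349-116685648, plus strand): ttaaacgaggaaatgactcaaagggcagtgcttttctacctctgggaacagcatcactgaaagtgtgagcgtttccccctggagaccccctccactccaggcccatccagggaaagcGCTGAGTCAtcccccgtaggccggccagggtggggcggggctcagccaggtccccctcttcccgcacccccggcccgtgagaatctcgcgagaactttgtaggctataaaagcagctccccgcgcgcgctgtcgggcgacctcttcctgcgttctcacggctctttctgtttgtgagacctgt
Gclm promoter (chr3:122245307-122245606, plus strand): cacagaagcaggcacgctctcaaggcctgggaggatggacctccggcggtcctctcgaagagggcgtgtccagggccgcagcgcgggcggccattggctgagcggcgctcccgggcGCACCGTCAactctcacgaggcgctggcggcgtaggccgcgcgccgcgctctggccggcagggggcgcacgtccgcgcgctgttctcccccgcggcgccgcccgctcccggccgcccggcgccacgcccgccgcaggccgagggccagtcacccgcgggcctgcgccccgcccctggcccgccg
Txn1 promoter (chr4:57956362-57956661, minus strand): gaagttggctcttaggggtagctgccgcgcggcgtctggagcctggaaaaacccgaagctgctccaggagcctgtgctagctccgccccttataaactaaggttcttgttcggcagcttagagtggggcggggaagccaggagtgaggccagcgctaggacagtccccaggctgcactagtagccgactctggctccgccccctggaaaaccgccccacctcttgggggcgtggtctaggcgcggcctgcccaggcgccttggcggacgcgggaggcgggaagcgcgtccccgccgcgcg

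The kB motif bound by NF-kB, searched by its consensus on both strands, was found in the promoters of Cat, Gpx1 and Prdx1, 3 of 12, against 8.46% of all promoters. The erythroid GATA motif, AGATAA or TGATAA, was found in 0 of the 12, against 18.6% of all promoters. A match describes these letters only and is not evidence of binding.

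Values are log2 ratios to the pool after each array was centred on its median, so that 0 is the level of the pool and -1 is a halving. The log base and the direction, mutant over pool, are not stated in the sources used here and were read from the dye labels and the range of the values. The pool counts as 1 control sample, so the spread between wild-type spleens and any dye bias of a probe remain in every comparison with it. Neither enters a comparison of one mutant group with the other. With 3 and 2 arrays the precision is low. A ratio gives no level, so the spleen label could not be checked against markers. The Sirt6 deletion could not be checked, since its 2 probes gave 1 value in all. Rela, read by 1 probe, lay at 1.15, -0.084 and -0.198 on Rela heterozygous arrays 1 to 3, against 0.477 and 1.075 on the knockout arrays. The library labelled Rela heterozygous 1 thus had a Rela value above both knockout values. The group difference was -0.49 ± 0.56 (limma adjusted p = 0.858), so this probe did not separate the groups and could not check the labels. Rela heterozygous array 3 stood apart from both knockout arrays (Pearson's r across genes, which are not independent replicates, of -0.16 and -0.02), and these resembled each other (0.82). The Y-linked genes Uty, Kdm5d and Eif2s3y lay between 1.448 and 2.964 on all 5 arrays, so that sex and genotype cannot be told apart where a spleen is set against the pool. Prdx4 is X-linked.

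Thioredoxin, Txn1, was far below the pool in both mutant groups, while the other members varied. In the Rela heterozygous spleens the 10 members had a median of 0.04 (all genes -0.02), with 6 means above the pool and 4 below. That median was 0.4, 0.3 and -0.35 without arrays 1, 2 and 3, so its sign depended on single libraries. In the knockout spleens the median was -1.04 (all genes -0.03), with 2 means above the pool and 8 below. No member passed an adjusted p of 0.05 by limma, a linear model fitted across all 9000 genes with Benjamini-Hochberg adjustment. That rule called 0.322% of all genes in the Rela heterozygous group and 0.0% in the knockout group. At an unadjusted p under 0.05, Prdx1 was higher and Txn1 and Nqo1 were lower in the Rela heterozygous spleens, and Txn1, Prdx2 and Nqo1 were lower in the knockout spleens. That threshold was passed by 5.06% (higher) and 8.0% (lower) of all genes in the Rela heterozygous group, and by 9.82% (higher) and 10.6% (lower) in the knockout group.

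**Figure D1:**
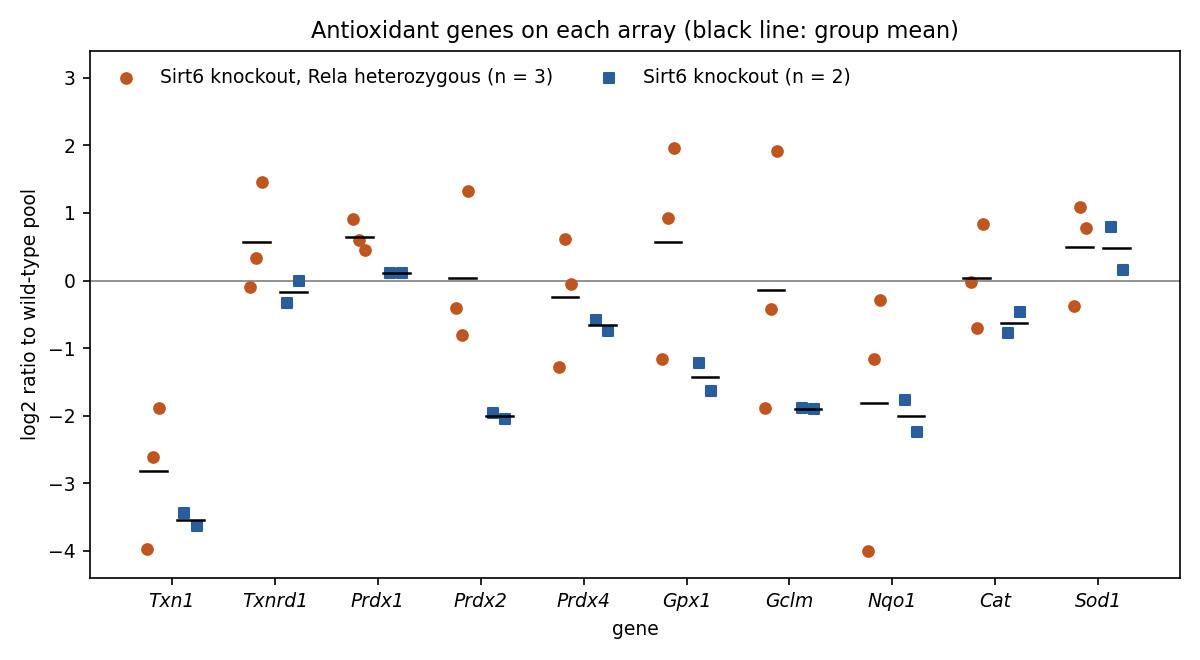
Log2 ratio to the wild-type pool (vertical axis) of the 10 antioxidant genes (horizontal axis) on each array, with Rela heterozygous arrays as circles on the left of each gene and knockout arrays as squares on the right. Black lines are group means. Txn1 lies between -3.968 and -1.894 on all 5 arrays, and the circles of Gclm, Gpx1 and Nqo1 spread over more than 3 units.

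By array, 1, 5 and 7 of the 10 members lay above the pool on Rela heterozygous arrays 1, 2 and 3, and their medians were -0.78, -0.04 and 0.81. Knockout arrays 1 and 2 had 2 members above it each, Prdx1 and Sod1, and medians of -1.0 and -1.19. The knockout arrays resembled each other and the Rela heterozygous arrays did not. Txn1 and Nqo1 were the members below the pool on all 5 arrays, which 9.69% of all genes were, and Prdx1 was the member above it on all 5, which 11.4% of all genes were. All 3 Rela heterozygous arrays lay above the pool for Prdx1 alone among the members (16.5% of all genes) and below it for Txn1 and Nqo1 (15.1% of all genes). Both knockout arrays lay below the pool for 7 of 10 members (41.9% of all genes) and above it for Prdx1 and Sod1 (39.6% of all genes).

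Txn1, which encodes cytosolic thioredoxin, lay at -3.968, -2.607 and -1.894 on the Rela heterozygous arrays and at -3.443 and -3.638 on the knockout arrays. It was the lowest member on 4 of the 5 arrays, and the groups overlapped. Its mean was -2.82 ± 0.42 in the Rela heterozygous group (SE from limma, n = 3), a level 7.08-fold below the pool (limma adjusted p = 0.0766, unadjusted 0.000336). In the knockout group it was -3.54 ± 0.51 (n = 2), 11.6-fold below the pool (limma adjusted p = 0.0912, unadjusted 0.000292). The standard error pools the spread of all 5 arrays. Of the 9000 genes tested, 24 had a lower mean than Txn1 in the Rela heterozygous group and 31 in the knockout group. The gene rests on 1 probe, so a fault or dye bias of that probe was not tested. Its signal over background was not analysed, so a value near background could not be told from a low level. The adjusted p in the Rela heterozygous group ranged from 0.0018 to 0.16 over 13 alternatives in the processing, and that in the knockout group from 0.000289 to 0.936, with 2 of 13 past the threshold in each.

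Txnrd1, the cytosolic reductase that recharges thioredoxin, stayed near the pool apart from 1 array. It lay at -0.103, 0.34 and 1.463 on the Rela heterozygous arrays, against -0.326 and 0.00 on the knockout arrays, and the high value was that of Rela heterozygous array 3. The means were 0.57 ± 0.36 and -0.16 ± 0.44 (limma adjusted p = 0.478 and 0.851).

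Of the 11 listed thioredoxin and reductase genes, members included, 0 were higher and 1 was lower at an unadjusted p under 0.05 in the Rela heterozygous group. In the knockout group 2 were higher and 3 lower, and none passed the adjusted threshold. For this and every later list, the unadjusted threshold was passed by 5.06% (higher) and 8.0% (lower) of all genes in the Rela heterozygous group. In the knockout group 9.82% (higher) and 10.6% (lower) of all genes passed it. Small counts near these shares do not set a list apart. Txnip, which encodes a protein that binds and inhibits thioredoxin, lay at 1.076, 0.596 and -0.079 on the Rela heterozygous arrays and at 2.475 and 2.362 on the knockout arrays. The groups did not overlap. Its knockout mean was 2.42 ± 0.38 (limma adjusted p = 0.0912), on the other side of the pool from Txn1, and the difference between the groups was -1.89 ± 0.49 (limma adjusted p = 0.358). The mitochondrial reductase gene Txnrd2 had values of -0.508, -0.553 and 1.258 on the Rela heterozygous arrays, against -1.863 and -1.56 on the knockout arrays (difference 1.78 ± 0.66, limma adjusted p = 0.494). Txnrd3, a reductase gene known for its expression in testis, had a difference of the other sign, -1.26 ± 0.44 (limma adjusted p = 0.472). The splicing factor gene Txnl4a had a knockout mean of -1.30 ± 0.34 (limma adjusted p = 0.121).

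Among the peroxiredoxins, Prdx2 was low in the knockout spleens and Prdx1 lay above the pool on all 5 arrays. Prdx1, a cytosolic peroxiredoxin, lay at 0.906, 0.593 and 0.454 on the Rela heterozygous arrays, against 0.108 and 0.105 on the knockout arrays. Every Rela heterozygous value was above both knockout values, and the whole spread was 0.80, the smallest of the 10 members. Its mean was 0.65 ± 0.26 in the Rela heterozygous group (limma adjusted p = 0.374) and 0.11 ± 0.32 in the knockout group (limma adjusted p = 0.867). The difference was 0.54, with a 95% interval of -0.44 to 1.53.

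Prdx2, the abundant red cell peroxiredoxin, lay at -0.40, -0.803 and 1.318 on the Rela heterozygous arrays and at -1.955 and -2.043 on the knockout arrays. Both knockout values were below all others. The mean was 0.04 ± 0.44 in the Rela heterozygous group (limma adjusted p = 0.972) and -2.00 ± 0.53 in the knockout group, 4.0-fold below the pool (limma adjusted p = 0.126). The difference of 2.04 ± 0.69 had the smallest p among the members in that comparison (unadjusted 0.0226, limma adjusted p = 0.468), with a 95% interval of 0.39 to 3.69. Prdx2 values are means of 3 probes. On the knockout arrays these lay between -1.731 and -2.154. On Rela heterozygous array 1 probe 6405 read -1.896, against 0.556 and 0.139 for probes 22520 and 23775, so the probes disagreed there about the side of the pool. On Rela heterozygous array 2 the same probe read -0.157, against -1.144 and -1.108.

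**Figure D2:**
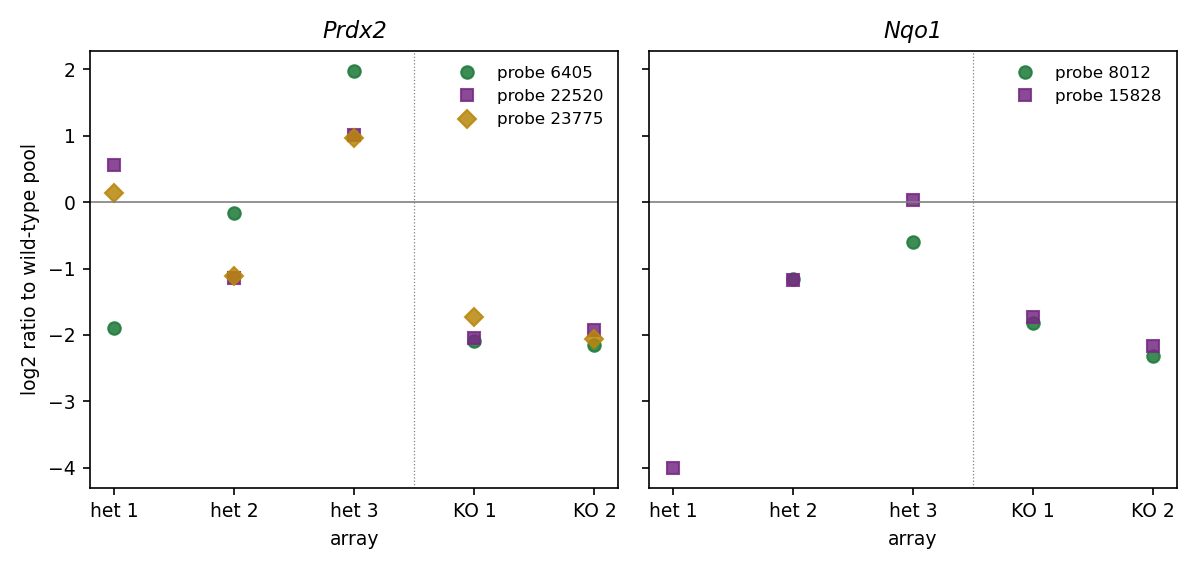
Log2 ratio to the wild-type pool (vertical axis) of each probe of Prdx2 (left) and Nqo1 (right) on each array (horizontal axis, Rela heterozygous arrays before knockout arrays). The 3 Prdx2 probes lie close together on the knockout arrays and apart on Rela heterozygous array 1, where probe 8012 of Nqo1 has no value and probe 15828 reads -4.001.

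Prdx4, the peroxiredoxin of the endoplasmic reticulum, lay at -1.276, 0.614 and -0.05 on the Rela heterozygous arrays, against -0.578 and -0.745 on the knockout arrays. The knockout values fell within the Rela heterozygous range, and the difference was 0.42 with a 95% interval of -1.07 to 1.91. Of the 5 measured genes for peroxiredoxins and sulfiredoxin, 3 of them members, 1 was higher and 0 lower in the Rela heterozygous group at an unadjusted p under 0.05, and 0 were higher and 1 lower in the knockout group. The mitochondrial peroxiredoxin gene Prdx3 lay at -2.447, -0.386 and 0.498, against -1.321 and -1.738 in the knockout. Srxn1, whose product repairs over-oxidised peroxiredoxins, lay at -1.252, 0.671 and 0.23, against -0.581 and -1.358. Prdx3 was lowest on Rela heterozygous array 1 and Srxn1 on knockout array 2, and the smallest adjusted p of either in any comparison was 0.258 by limma. The Prdx genes are related in sequence, and binding of 1 gene's RNA by another's probe was not tested.

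Gpx1 and Gclm, genes of the glutathione system, were low on both knockout arrays and on Rela heterozygous array 1, and high on Rela heterozygous array 3. Gpx1, the main cytosolic glutathione peroxidase, lay at -1.168, 0.932 and 1.956 on the Rela heterozygous arrays, against -1.218 and -1.633 on the knockout arrays. Rela heterozygous array 1 was at the knockout level and the other two were above the pool. The mean was 0.57 ± 0.57 in the Rela heterozygous group (limma adjusted p = 0.636) and -1.43 ± 0.69 in the knockout group (limma adjusted p = 0.298). The difference was 2.00 ± 0.90 (limma adjusted p = 0.587).

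Gclm, the regulatory subunit of the enzyme that starts glutathione synthesis, lay at -1.888, -0.427 and 1.913 on the Rela heterozygous arrays and at -1.893 and -1.908 on the knockout arrays. Rela heterozygous array 1 and both knockout arrays were nearly equal, and Rela heterozygous array 3 was as far above the pool as these were below it. With a range of 3.8 Gclm was the most spread member within the Rela heterozygous group, and with a gap of 0.01 it was, after Prdx1, the closest between the knockout arrays. The mean was -0.13 ± 0.66 in the Rela heterozygous group and -1.90 ± 0.80 in the knockout group (limma adjusted p = 0.933 and 0.25). The catalytic subunit gene Gclc had -0.657, -0.428 and 1.227 on the Rela heterozygous arrays, against -1.315 and -0.817 on the knockout arrays, likewise highest on Rela heterozygous array 3.

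Of the 9 measured genes for glutathione synthesis, reduction and glutaredoxins, 1 was higher and 0 lower in the Rela heterozygous group at an unadjusted p under 0.05, and 2 were higher and 1 lower in the knockout group. Gsr, which encodes the reductase that regenerates glutathione, was above the pool on all 5 arrays, with means of 0.79 and 1.03. Gss, which encodes the enzyme of the second step of synthesis, had a knockout mean of -1.08 ± 0.42 (limma adjusted p = 0.22). The glutaredoxin gene Glrx5, needed for iron-sulfur clusters and haem synthesis, lay at 0.30, -0.507 and 1.912, against -1.434 and -1.134 in the knockout (difference 1.85 ± 0.74, limma adjusted p = 0.535).

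Of the other glutathione peroxidase genes, Gpx3, the secreted plasma enzyme, was above the pool on all 5 arrays, at 1.818, 1.164 and 0.836 in the Rela heterozygous spleens, against 1.68 and 2.078 in the knockout spleens (knockout mean 1.88 ± 0.37, limma adjusted p = 0.0986). Gpx7 and Gpx8, genes of the endoplasmic reticulum, had means of -1.80 and -1.60 in the Rela heterozygous spleens, against 0.16 and -0.66 in the knockout spleens. Neither passed the test against the pool in the Rela heterozygous group (limma adjusted p = 0.37 and 0.203). Gpx7 lay at -3.81, -0.339 and -1.24 on the Rela heterozygous arrays, against 0.452 and -0.131 on the knockout arrays, so its mean there rests largely on array 1. Among 17 measured glutathione S-transferase genes, 1 was higher and 2 were lower in the Rela heterozygous group, and 5 were higher and 2 lower in the knockout group, at an unadjusted p under 0.05. Gsta3 lay at 1.517, 1.206 and 0.918, against 2.08 and 2.212 in the knockout (knockout mean 2.15 ± 0.33, limma adjusted p = 0.0912). The membrane-bound Mgst3 was on the other side, with a knockout mean of -2.48 ± 0.78 (limma adjusted p = 0.161).

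Nqo1, a quinone reductase gene and standard readout of NRF2, was below the pool on all 5 arrays. It lay at -4.001, -1.166 and -0.283 on the Rela heterozygous arrays and at -1.771 and -2.241 on the knockout arrays. The lowest and the highest value were both Rela heterozygous, and the groups overlapped. The means were -1.82 ± 0.67 and -2.01 ± 0.82, 3.52-fold and 4.02-fold below the pool (limma adjusted p = 0.37 and 0.237). Without Rela heterozygous array 1 the mean of that group was -0.72. The difference was 0.19, with a 95% interval of -2.34 to 2.72. Of its 2 probes, probe 8012 had no value on Rela heterozygous array 1, so the value there is that of probe 15828 alone. On the other 4 arrays the 2 probes were on the same side of the pool except on Rela heterozygous array 3, where they read -0.598 and 0.032.

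The measured NRF2 target genes lay on both sides of the pool. Of 18, 9 means were above and 9 below it in the Rela heterozygous group, and 6 above and 12 below in the knockout group. Of these 18, 3 of them members, 2 were higher and 2 lower in the Rela heterozygous group at an unadjusted p under 0.05, and 2 were higher and 1 lower in the knockout group, with medians of 0.00 and -0.12. The haem oxygenase gene Hmox1 lay at 0.837, 0.74 and -0.525, against 1.451 and 0.679 in the knockout. Osgin1, a growth inhibitor gene, lay at 1.996, 0.774 and -0.639, against 1.534 and 1.905. Both were lowest on Rela heterozygous array 3, where Gclm and Txnrd1 were highest. Ferritin light chain, Ftl1, was above the pool on all 5 arrays (means 1.35 and 0.85). The biliverdin reductase gene Blvrb lay at -0.638, 0.167 and 1.964, against -1.311 and -1.256, and like Nqo1, Gclm and Gclc it was below the pool on both knockout arrays and highest on Rela heterozygous array 3.

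Of 9 measured genes for NRF2 and its regulators, 8 means were above the pool and 1 below in the Rela heterozygous group (median 0.41), and 6 above and 3 below in the knockout group (median 0.18). In each group 1 was higher and 0 were lower at an unadjusted p under 0.05 by limma. It was Bach1, a haem-sensitive repressor of antioxidant response elements, at 2.527, 0.837 and 0.854 on the Rela heterozygous arrays and 1.534 and 2.124 on the knockout arrays (means 1.41 and 1.83 ± 0.50, limma adjusted p = 0.131 for the knockout). Keap1, which targets NRF2 for degradation, had means of 0.43 and -0.05.

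Cat and Sod1 lay close to the pool, between -0.776 and 1.081, on all 5 arrays. Catalase, Cat, was at -0.028, -0.702 and 0.836 on the Rela heterozygous arrays, against -0.776 and -0.47 on the knockout arrays. The means were 0.04 ± 0.35 and -0.62 ± 0.43 (limma adjusted p = 0.968 and 0.436). Sod1, the cytosolic superoxide dismutase, was at -0.376, 1.081 and 0.778, against 0.797 and 0.16 in the knockout. Its means of 0.49 ± 0.36 and 0.48 ± 0.44 gave a difference of 0.02, with a 95% interval of -1.36 to 1.39. None of the 5 genes for superoxide dismutases, catalase and the copper chaperone Ccs had an unadjusted p under 0.05 in either group by limma.

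The direct comparison of the mutant groups asks whether loss of 1 Rela copy moved these genes within Sirt6 knockout spleens. The 10 differences were all above 0, from 0.02 (Sod1) to 2.04 (Prdx2), although those of Nqo1 and Sod1 turned negative with some arrays left out or with the replicate number as a block, and that of Prdx4 came to 0.00 without Rela heterozygous array 2. Array 1 is the library whose Rela value was above both knockout values, by a probe that did not separate the groups. The median of the 10 differences was 0.69 (all genes 0.03). It was 1.17 without Rela heterozygous array 1, and 0.31 without array 3 or with the block. Without any other single array it was between 0.56 and 0.73. None of the 10 differences passed the adjusted threshold by limma, which 0.0% of all genes passed. The smallest adjusted p over all genes was 0.204. Prdx2 was the member with an unadjusted p under 0.05, which 3.48% (higher) and 5.34% (lower) of all genes had. For Prdx1, Prdx2, Gpx1 and Gclm every Rela heterozygous array was above every knockout array, which held for 14.4% of all genes, and for 0 members every one was below, against 13.8%. For Gclm the gap between the nearest arrays was that between -1.888 and -1.893. Without the library labelled Rela heterozygous 1 the count was 8 members, against 29.0% of all genes. Without any other single array it was between 4 and 6 members, against 20.7% to 22.8% of all genes.

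**Figure D3:**
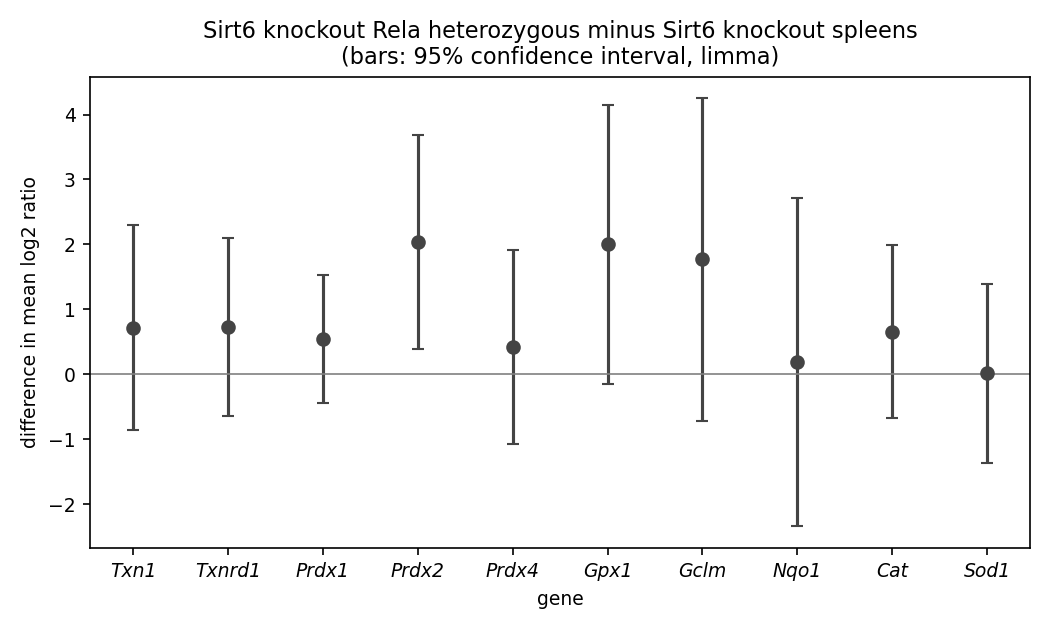
Difference in mean log2 ratio, Rela heterozygous minus knockout (vertical axis), of the 10 genes (horizontal axis), with the 95% confidence interval from limma (n = 3 and 2). All points lie above 0, though those of Nqo1 and Sod1 turn negative and that of Prdx4 comes to 0.00 under other settings, and the interval of Prdx2, from 0.39 to 3.69, is the one that does not include 0.

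Medians of the cell type marker lists also differed between the arrays. Of 17 measured erythroid markers, the array medians were -1.10, -0.59 and 1.61 on the Rela heterozygous arrays, against -2.77 and -2.41 on the knockout arrays. All 17 knockout means were below the pool, and 12 had an unadjusted p under 0.05 by limma. Dividing cell markers (16 measured) had array medians of -1.76, -0.39 and 1.02, against -1.53 and -1.88. The order of the Rela heterozygous arrays in Gclm, Gpx1, Nqo1, Txn1 and Txnrd1, with array 1 lowest and array 3 highest, was that of both marker lists. The other 5 members had another order. Prdx2 and Cat were also highest on array 3, but lowest on array 2, Prdx4 and Sod1 were highest on array 2, and Prdx1 was highest on array 1 and lowest on array 3. The share of all genes with the order of the marker lists was not counted. On Rela heterozygous array 1 the erythroid median was above both knockout arrays, whereas Txn1 (-3.968) and Nqo1 (-4.001) were below both. Gclm (-1.888, against -1.893 and -1.908) and Gpx1 (-1.168, against -1.218 and -1.633) were only just above the higher knockout array there. Txnrd1 and the dividing cell median were between the knockout arrays. Macrophage markers (8 measured) lay at -0.10, 0.59 and 0.00, against 1.30 and 0.82, neutrophil markers (12) at -0.45, 1.52 and -0.65, against 2.05 and 0.75, and B cell markers (8) at -0.74, -0.37 and -1.39, against -0.92 and -1.47. The macrophage list was split in the Rela heterozygous group, with 4 means above the pool and 4 below. Of these, 3 were higher and 3 lower at an unadjusted p under 0.05 by limma. T cell markers (8) lay at 0.70, 0.70 and -0.73, against 0.22 and -0.03. Markers of the exocrine pancreas (7), an organ next to the spleen, lay at 1.14, -0.27 and -1.41, against -2.3 and -2.8. In whole spleen RNA, fewer cells of a type and less RNA per cell cannot be told apart, and the part of cell composition in the antioxidant values was not tested.

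**Figure D4:**
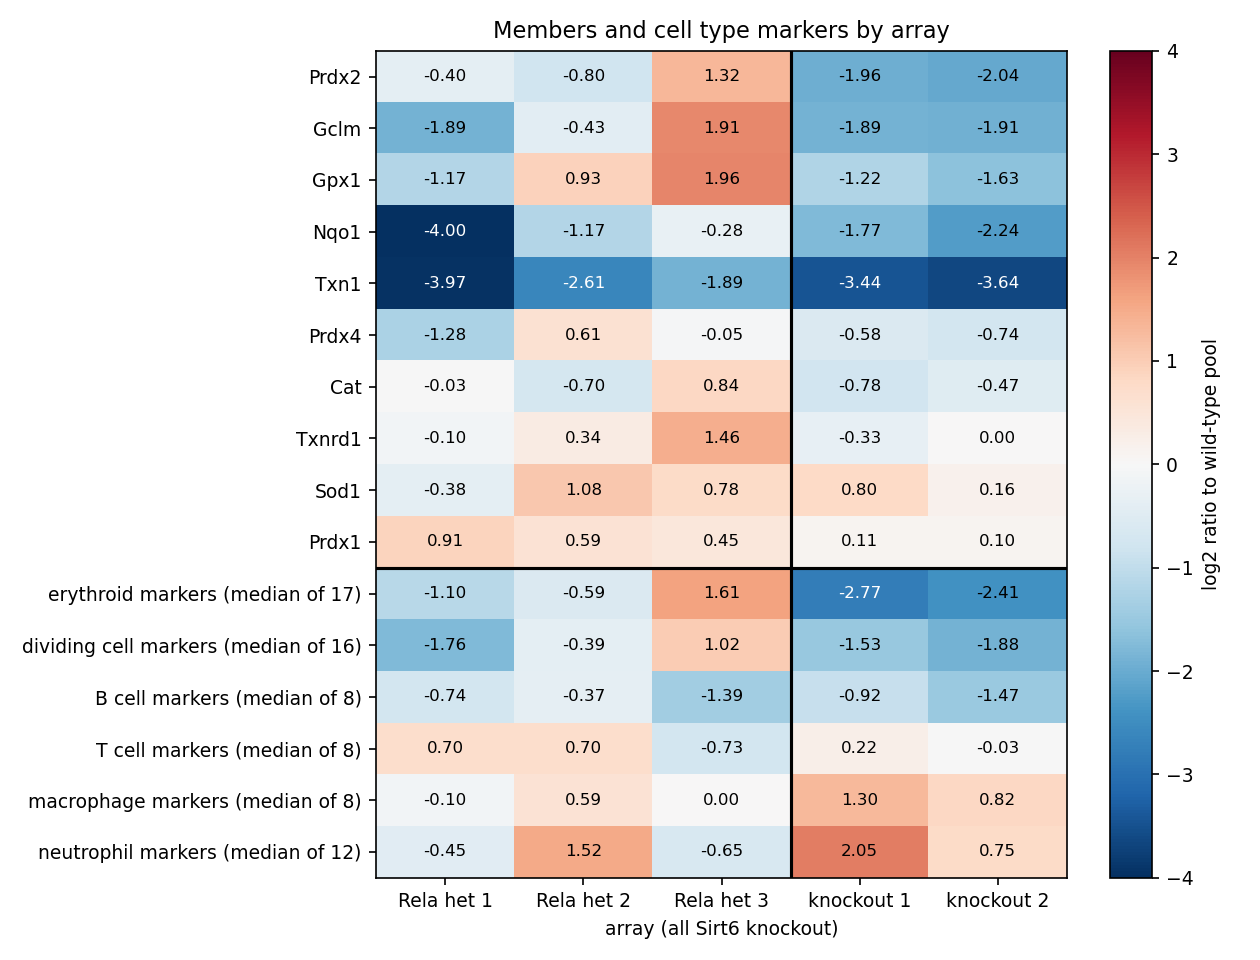
Log2 ratio to the wild-type pool (colour and printed value) of the 10 genes (upper rows) and the median of each marker list except exocrine pancreas (lower rows) on each array (columns, Rela heterozygous arrays before knockout arrays). Prdx2, Gclm, Gpx1, Cat and the erythroid and dividing cell markers are above the pool on Rela heterozygous array 3 and below it on both knockout arrays.

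Set among all 9000 genes, Txn1 and Nqo1 stood in the low tail of both groups. The share of genes with a lower mean was 0.267% for Txn1 and 1.78% for Nqo1 in the Rela heterozygous group, and 0.344% and 3.59% in the knockout group. Prdx2, Gclm and Gpx1 had 53.9%, 42.0% and 86.7% of genes lower in the Rela heterozygous group, and 3.63%, 4.19% and 7.96% in the knockout group, and the differences of these genes did not pass the test above. The distance between the lowest and highest Rela heterozygous array had a median of 1.98 over the members and 1.28 over all genes, and that between the knockout arrays 0.25 and 0.35.

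**Figure D5:**
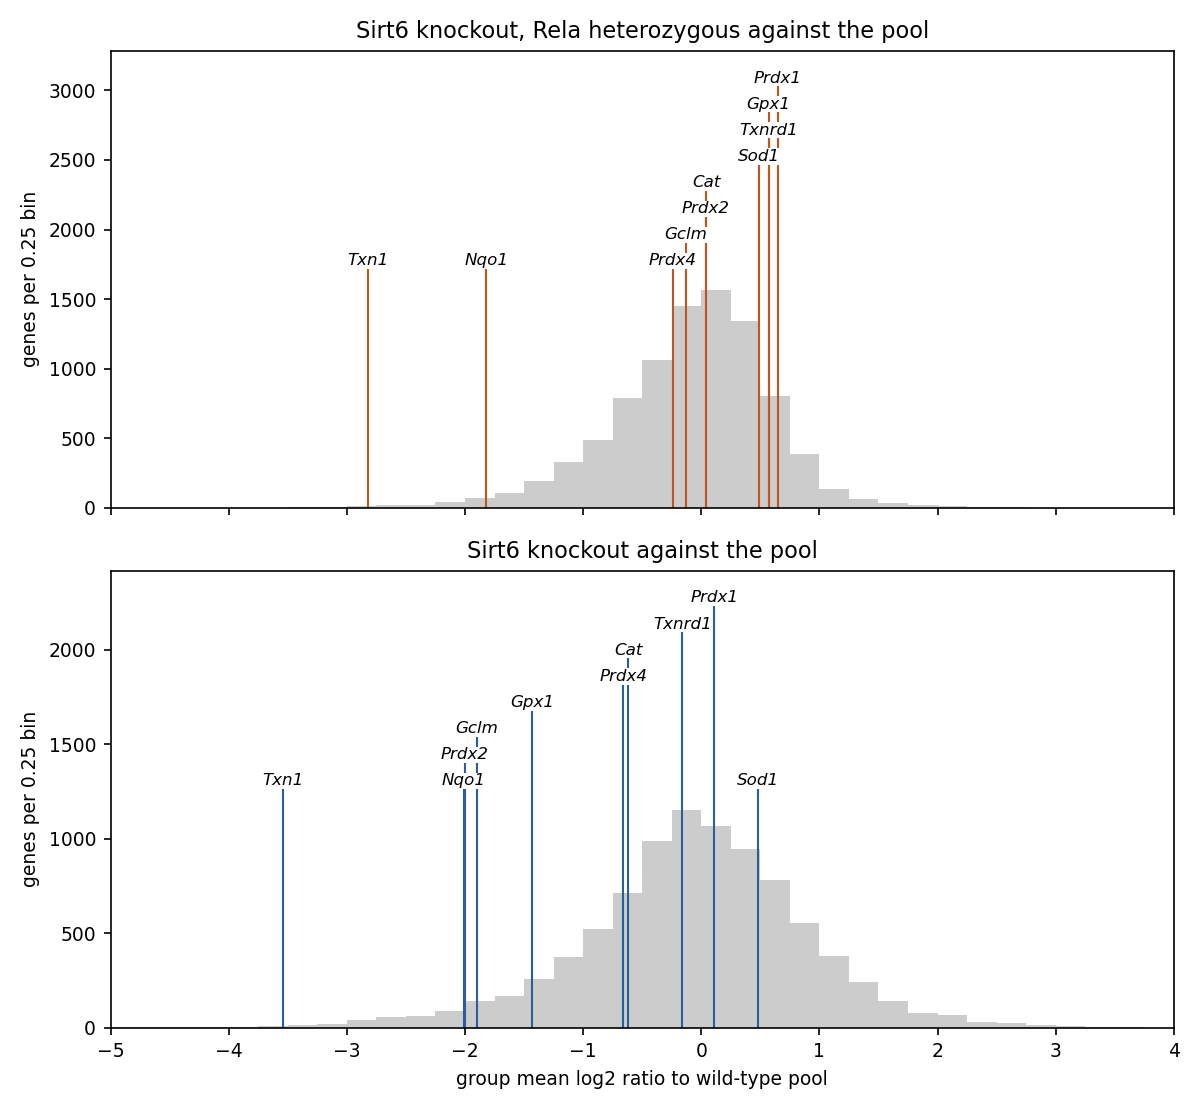
Number of genes (vertical axis) by group mean log2 ratio to the wild-type pool (horizontal axis, bins of 0.25) for all 9000 genes in grey, with the 10 antioxidant genes as coloured lines, for the Rela heterozygous group above and the knockout group below. Txn1 stands far left in both panels, at -2.82 and -3.54, and Prdx2, Gclm and Gpx1 stand left of centre in the knockout panel.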

How the data were processed

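Spleen RNA of 5 mutant samples was measured on 2-colour arrays against a wild-type pool, with the dyes not swapped. The authors deposited a value for each spot, taken here to be the log2 ratio of Cy5 to Cy3. No source used here gives its normalization. Of 38784 spots, 19768 to 22871 had a value on an array. Each array was centred on its median, and probes of a gene were averaged with symbols checked through Entrez IDs (all 22204 named probes matched a RefSeq gene). The fit held the 9000 genes measured on all 5 arrays and was made with limma 3.58.1 (lmFit and eBayes, R 4.3.3, 1 mean for each group, 3 residual and 3.63 prior degrees of freedom), two-sided, with Benjamini-Hochberg adjustment at 0.05. The tests were each group mean against 0 and the Rela heterozygous minus the knockout mean, and the fit was tested on simulated data. The series text calls the samples biological replicates without naming animals, so p-values measure the spread between these samples. The samples share replicate numbers but nothing says that these pair them. The deviations from the group means of samples with the same number correlated at -0.409 and -0.399. With 2 knockout arrays the deviation of one is the negative of the other, so these values are not separate checks and cannot decide pairing.

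The members and the gene lists, written from general knowledge, were chosen with earlier results of these data known. Of the wider lists, 91 of 108 other genes had a named probe and 86 were tested. Named were all members, from each list up to 3 genes with the largest absolute moderated t in the knockout group and up to 3 in the difference, Sirt6, Rela and Y-linked genes, and for Txn1 and Prdx2 the 3 genes nearest over the 5 arrays. The alternatives left the arrays uncentred, normalized them by quantiles or scaled them to a common median absolute deviation. Others took genes on at least 2 arrays of each group, single probes, the arrays of one group by themselves or robust eBayes, blocked on the replicate number, or left out an array. Leaving out arrays in the count of members whose groups do not overlap was added after seeing the data. Figures were drawn with matplotlib 3.10.9. Spot intensities were not analysed here.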

Additional observations from a re-analysis of the deposited data

How the results depend on the processing

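In the knockout group 9 of 10 members kept the sign of their mean under all 13 alternatives, the exception being Txnrd1 (0.29 with the replicate block). In the Rela heterozygous group 5 of 10 did so, and in the difference 7 of 10 under 12 alternatives. Part of these counts was fixed in advance. Robust eBayes and the gene set with missing values allowed cannot move a mean or difference of the members. Using the arrays of a group by themselves, or leaving out an array of the other group, cannot move that group's mean. Members past the adjusted threshold under an alternative by limma were Txn1 in the Rela heterozygous group with quantile normalization (adjusted p = 0.034) and the replicate block (0.0018), Txn1 in the knockout group with the replicate block (0.0178), and, with the spread of the 2 knockout arrays alone, Txn1 (0.000289), Prdx2 (0.000918), Gpx1 (0.00392), Gclm (0.0011) and Nqo1 (0.00114). Of all 9000 genes, 53 passed in the Rela heterozygous group with quantile normalization and 215 with the replicate block. In the knockout group 101 of all genes passed with the block and 3321 with the spread of its own arrays alone. Passing under that last setting thus does not single out these members. The cause of the changes between settings was not tested.

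Means of the Rela heterozygous group on the other side of the pool were, with quantile normalization, Prdx2 at -0.03, Gclm at 0.01 and Cat at -0.10, with arrays scaled to a common median absolute deviation, Prdx2 at -0.09, Prdx4 at 0.04 and Cat at -0.11, and with single probes Prdx2 at -0.03. With single arrays left out these means ranged from -0.60 to 0.46 (Prdx2), -0.66 to 0.28 (Prdx4), -0.12 to 1.44 (Gpx1), -1.16 to 0.74 (Gclm), -0.36 to 0.40 (Cat). With the replicate block the knockout mean of Gpx2 was 0.24 (-0.31 to 0.09 without single arrays), and the differences of Nqo1, Sod1 and Ncf1 were -0.58, -0.13 and 0.07. With single arrays left out the differences ranged from 0.00 to 0.94 (Prdx4), -0.58 to 1.28 (Nqo1), -0.30 to 0.45 (Sod1), -1.81 to 0.06 (Mt1), -0.65 to 0.07 (Ncf1).

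The count of genes called in the Rela heterozygous group, 29, was 5 as deposited, 53 with quantile normalization, 215 with the replicate block and 0 with scaled arrays, genes on at least 2 arrays of each group, single probes, the arrays of the group alone or robust eBayes, and between 0 and 3 without single arrays. In the knockout group 0 genes were called, against 3321 from its own arrays alone and 101 with the replicate block, and in the difference 0 against 42 with the replicate block. At an unadjusted p under 0.05 there were 884 higher and 951 lower genes in the knockout group, and 313 and 481 in the difference. The median of the members without single arrays was between -0.35 and 0.4 in the Rela heterozygous group and between 0.31 and 1.17 in the difference (0.31 with the replicate block). In the knockout group it was -0.65 with the replicate block and between -1.19 and -1.0 without single arrays. The count of members whose groups do not overlap was 4 with all arrays, against 14.4% of all genes. Without single arrays it was between 4 and 8, against 20.7% to 29.0% of all genes. Where leaving out an array left 1 in a group, its spread was taken from the other group. Signal over background was not analysed, so a low value near background could not be told from a low level.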

Other observations

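Genes that make or buffer oxidants are given here, since the preceding account leaves them out. The phagocyte NADPH oxidase makes superoxide. Of its 6 measured genes, 3 means were above and 3 below the pool in the Rela heterozygous group. In the knockout group 5 were above and 1 below, with a median of 0.67 (all genes -0.03). None had an unadjusted p under 0.05 by limma in either group. The share of all genes with a mean above the pool was not counted. The catalytic subunit gene Cybb lay at 1.691, 1.729 and -0.436 on the Rela heterozygous arrays, against 1.54 and 1.01 on the knockout arrays. The array medians of the oxidase genes were 0.6, 0.49 and -0.67, against 1.08 and 0.24. Those of the neutrophil markers were -0.45, 1.52 and -0.65, against 2.05 and 0.75, likewise lowest on Rela heterozygous array 3 and highest on knockout array 1. Those of the macrophage markers, a list split about the pool in the Rela heterozygous group, were -0.10, 0.59 and 0.00, against 1.30 and 0.82. They were lowest on Rela heterozygous array 1 and highest on knockout array 1. The part of these cell types in the oxidase values was not tested. The metallothionein gene Mt1, whose product binds zinc and copper, lay at 0.483, 1.093 and 1.394, against 0.933 and 2.80, with a knockout mean of 1.87 ± 0.51 (limma adjusted p = 0.13). Mt2 lay at -0.601, 0.731 and 1.2, against 0.601 and 1.522.

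Genes listed for selenoproteins and methionine sulfoxide reductases were mixed. Selenoproteins hold selenocysteine, as do the products of Txnrd1 and Gpx1, but some listed genes, such as Msra and Eefsec, do not encode selenoproteins. Selenop, the plasma selenium carrier, was above the pool on all 5 arrays, at 0.913, 1.897 and 0.701 in the Rela heterozygous spleens, against 2.969 and 2.641 in the knockout spleens, with no overlap. Its knockout mean was 2.80 ± 0.40 (limma adjusted p = 0.0912) and the difference -1.63 ± 0.51 (limma adjusted p = 0.444). Of the 10 measured genes of this list, 1 was higher and 1 lower in the Rela heterozygous group, and 1 higher and 0 lower in the knockout group, at an unadjusted p under 0.05.

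The remaining genes that the naming rule took from the antioxidant lists had adjusted p-values of 0.158 (Ggt5) or more in every comparison by limma. They were Gpx2, Ggt5, Gsta2, Gsta4, Gstm1, Sod2, Sod3, Ccs, Nfe2l1, Mafg, Mafk, Sqstm1, Taldo1, Tkt, Idh1, Idh2, Me2, Msra, Selenos, Eefsec, Cyba, Ncf1, Ncf4 and Rac1. Of the 6 measured genes for NADPH supply, 1 was higher in the Rela heterozygous group at an unadjusted p under 0.05, Taldo1, and 0 in the knockout group.

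Over the 5 arrays the genes nearest to Prdx2, by root mean square difference of log2 ratios, were Pif1 (0.15), Cdc25b (0.19) and Fam117a (0.20), against a median of 1.63 over all genes. Pif1 encodes a DNA helicase and Cdc25b a phosphatase that drives entry into mitosis. The genes nearest to Txn1 were Ctnna2 (0.38), Dbh (0.79) and Olfr976 (0.88), against a median of 3.22. Ctnna2 encodes a catenin of neurons, Dbh the enzyme that makes noradrenaline and Olfr976 an olfactory receptor.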
